A study of Mus musculus with 6 samples.

Results

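The nuclear genes of respiratory chain complexes I to IV were described as 80 of the 37991 genes in the count tables. They were chosen by mouse symbol: names that begin with Nduf and then a, b, c, s or v, the Sdha to Sdhd genes, names that begin with Uqcr, and names that begin with Cox, a digit from 4 to 8 and a letter. Symbols marked as pseudogenes with -ps, of which there were 3, were left out. The rule gave 41 genes named as complex I subunits, 8 complex I assembly factors (Ndufaf1 to Ndufaf8), 4 complex II, 8 complex III and 19 complex IV genes. The rule uses names only and no measured value.

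The respiratory chain sits in the inner mitochondrial membrane. Complex I takes electrons from NADH and complex II takes them from succinate, both pass them to ubiquinone, complex III passes them on to cytochrome c, and complex IV, cytochrome c oxidase, reduces oxygen with them. Complexes I, III and IV pump protons, and ATP synthase uses the gradient. Most subunits are encoded in the nucleus and are made in nearly every cell, while a few complex IV subunits have a second isoform that is made in heart and skeletal muscle in place of the ubiquitous one. In skeletal muscle these are Cox6a2 (partner Cox6a1), Cox7a1 (partner Cox7a2) and, in the mouse, Cox8b (partner Cox8a), and they accumulate as muscle matures.

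The study compared C2C12 cells, a mouse myoblast line of strain C3H that fuses into myotubes when serum is lowered, with and without knockdown of Kap1 (Trim28), a corepressor that DNA-binding proteins recruit to silence chromatin. A lentivirus carried the hairpin, sh-Kap1 in the knockdown (shKap1) and sh-Luc, against luciferase, in the control (shCtrl). Proliferating myoblasts (MB) grew in 10% fetal calf serum and gave 2 libraries per hairpin, and cells differentiated for 48 hours (MT) in 2% horse serum with an insulin, transferrin and selenium supplement gave 1 library per hairpin. The labels name no separate culture for either MB replicate, and the p-values then cover only the spread among these libraries, which may be technical.

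The libraries held 36247530 to 49839994 counts on genes. Levels are given as CPM, the count of a gene scaled to the library's total on genes, and for comparisons between genes as CPM per kilobase of exon. Trim28 was at 101 to 152 CPM in the 3 knockdown libraries and at 382 to 587 CPM in the 3 control libraries, without overlap. All 5 myoblast markers examined had counts in all 6 libraries. A mark in the file names sets MB replicate 1 of both hairpins and both MT libraries apart from MB replicate 2 of both hairpins. The sets are called batch 1 and batch 2 here, though the meaning of the mark is not given. The mark and the differences in muscle marker levels between the MB replicates, given below, cannot be told apart.

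Promoter sequences of 2 isoform pairs are shown because each sets a muscle isoform, highest in MT control, beside its ubiquitous partner. They are RefSeq windows of 300 bases (250 before and 50 after the transcription start) on build GRCm38.p6, a later build than the mm9 used for the counts, written 5′ to 3′ on the gene's strand. Capitals mark matches on either strand to CAGCTG, an E-box bound by myogenic factors such as MyoD, or to CCGGAAG, a motif of ETS factors such as GABP.
Cox8b (chr7:140900397-140900696, minus strand): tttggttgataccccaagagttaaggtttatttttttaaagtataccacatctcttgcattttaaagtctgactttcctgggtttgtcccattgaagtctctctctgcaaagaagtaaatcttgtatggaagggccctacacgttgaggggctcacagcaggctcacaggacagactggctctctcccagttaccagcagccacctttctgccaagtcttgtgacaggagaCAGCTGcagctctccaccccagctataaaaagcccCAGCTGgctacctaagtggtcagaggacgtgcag
Cox8a (chr19:7217567-7217866, minus strand): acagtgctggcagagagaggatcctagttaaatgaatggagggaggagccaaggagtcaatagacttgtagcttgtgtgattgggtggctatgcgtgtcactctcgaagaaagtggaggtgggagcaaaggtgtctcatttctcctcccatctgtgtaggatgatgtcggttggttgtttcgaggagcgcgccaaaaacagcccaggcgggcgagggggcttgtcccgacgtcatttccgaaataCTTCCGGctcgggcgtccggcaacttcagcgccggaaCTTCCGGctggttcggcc
Cox7a1 (chr7:30183921-30184220, plus strand): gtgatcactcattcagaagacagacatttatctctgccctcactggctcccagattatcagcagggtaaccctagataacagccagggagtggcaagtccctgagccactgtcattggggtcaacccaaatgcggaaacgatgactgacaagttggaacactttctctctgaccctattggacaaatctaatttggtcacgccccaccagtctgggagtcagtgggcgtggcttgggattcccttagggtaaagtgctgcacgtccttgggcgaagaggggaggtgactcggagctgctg
Cox7a2 (chr9:79759804-79760103, minus strand): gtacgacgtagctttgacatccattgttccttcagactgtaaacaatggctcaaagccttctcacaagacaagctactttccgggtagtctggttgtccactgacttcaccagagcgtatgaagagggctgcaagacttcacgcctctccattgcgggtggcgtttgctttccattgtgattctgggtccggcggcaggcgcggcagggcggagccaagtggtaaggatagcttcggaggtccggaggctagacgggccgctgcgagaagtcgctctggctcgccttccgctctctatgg
The Cox8b window held 2 matches to CAGCTG and the Cox8a window 2 to CCGGAAG, while the Cox7a1 and Cox7a2 windows held neither. A window was found for 61 of the 80 members (63 windows). Among them 5 (7.94%) held CAGCTG, against 16.3% of all 32851 mouse windows of that length, and 13 (20.6%) held CCGGAAG, against 8.86%. GCGCATGCG, a motif of NRF1, a regulator of nuclear genes for mitochondria, was in 7 (11.1%) against 1.75%, and the MEF2 consensus was in 0 against 3.19%. Both strands were searched, and 0 matches of different motifs shared bases in the member windows. A match is a string of letters and no evidence of binding.

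Together the 80 genes took a similar share of the counts in every library. Their summed level was 5462 and 5919 CPM in MB control, 5785 and 6093 CPM in MB knockdown, 5909 CPM in MT control and 5982 CPM in MT knockdown, which is 0.546% to 0.609% of the counts. The lowest and highest values were both MB libraries, so the MT libraries and both hairpins lay within the range of the MB replicates. Complex IV genes summed to 1358 to 1571 CPM in MB and to 1584 and 1613 CPM in MT. Scaled by TMM, as in the tests below, the MT control sum stayed above the MB range and the MT knockdown sum lay inside it. Complex I assembly factors summed to 121 to 130 CPM in MB and were below that range in both MT libraries, at 106 and 111 CPM.

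Levels differed widely between genes. Per kilobase, the highest were Cox8a, an ubiquitous subunit of complex IV, at 258 to 415 CPM per kb, and Cox6a1 at 190 to 256. In complex I, Ndufb9, a membrane-arm subunit, was at 146 to 165 CPM per kb and Ndufa2, an accessory subunit, at 134 to 174. In complex III the small subunits Uqcr10 and Uqcrh were at 123 to 150 and 114 to 153 CPM per kb, and in complex II Sdhd, a membrane anchor, was at 82.3 to 113. Median levels per kilobase in MT control were 39.7 for complex I, 52.2 for complex II, 80.0 for complex III and 55.9 for complex IV, against 5.97 for the assembly factors, proteins that help build complex I and do not stay in it. At the other end, 6 members did not pass the filter on low counts (a cutoff of 0.234 CPM) and were not tested. They were the testis isoforms Cox6b2, Cox7b2 and Cox8c, the lung isoform Cox4i2, and the gene copies Ndufa11b and Ndufs6b. Cox8c had 0 counts in all 6 libraries, which allows up to 0.0602 to 0.0828 CPM (3 counts per library), and no other of the 6 exceeded 0.166 CPM. Of the 74 that passed, 71 were over the cutoff in every library, and 3 passed through some libraries only: Ndufa4l2 through MT knockdown, Cox8b through 3 libraries and Cox6a2 through 4.

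The muscle isoforms Cox6a2 and Cox8b of complex IV were far higher in MT control than in the other libraries, and Cox7a1 was so to a lesser degree. Cox6a2 (ENSMUSG00000030785), the muscle form of subunit 6a, was at 0.0477 and 0.763 CPM in MB control, 0.15 and 0.939 CPM in MB knockdown, 21.4 CPM in MT control and 1.24 CPM in MT knockdown. Only MT control was high, and the MB values of the 2 hairpins overlapped. As a ratio of summed counts, with an exact 95% interval that covers counting error only, MT control was 53.5 times MB control (37.9 to 78.1) and 17.2 times MT knockdown (12.8 to 23.7), and MT knockdown was 2.34 times MB knockdown (1.52 to 3.58). The ratios to MB depended on the replicate beyond these intervals. MT control was 448 times MB control replicate 1, which had 2 counts, and 28 times replicate 2, and MT knockdown was 8.27 times MB knockdown replicate 1 and 1.32 times replicate 2.

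Cox8b (ENSMUSG00000025488), the muscle form of subunit 8, had 0 counts in replicate 1 of both MB groups, and was at 0.246 CPM in MB control replicate 2, 0.137 CPM in MB knockdown replicate 2, 22.6 CPM in MT control and 0.745 CPM in MT knockdown. Again MT control stood far above the other 5 libraries, and MT knockdown was next. MT control was 187 times MB control (101 to 391) and 30.4 times MT knockdown (20.8 to 46.3), and MT knockdown was 11.2 times MB knockdown (4.54 to 33.2). Against replicate 1 alone, with a floor of 3 counts in that library, MT control was at least 316-fold higher in control cells and MT knockdown at least 11.6-fold higher in knockdown cells. Against replicate 2 alone the ratios were smaller, 91.9 in control cells and 5.42 in knockdown cells.

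Cox7a1 (ENSMUSG00000074218), the muscle form of subunit 7a, was at 0.477 and 0.59 CPM in MB control, 0.3 and 0.504 CPM in MB knockdown, 1.63 CPM in MT control and 0.469 CPM in MT knockdown. It was thus low throughout, highest in MT control, and in MT knockdown within the range of the MB libraries. MT control was 3.05 times MB control (2.09 to 4.51) and 3.47 times MT knockdown (2.04 to 6.24), while MT knockdown against MB knockdown was 1.18 (0.62 to 2.15), an interval that holds 1.

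**Figure D1:**
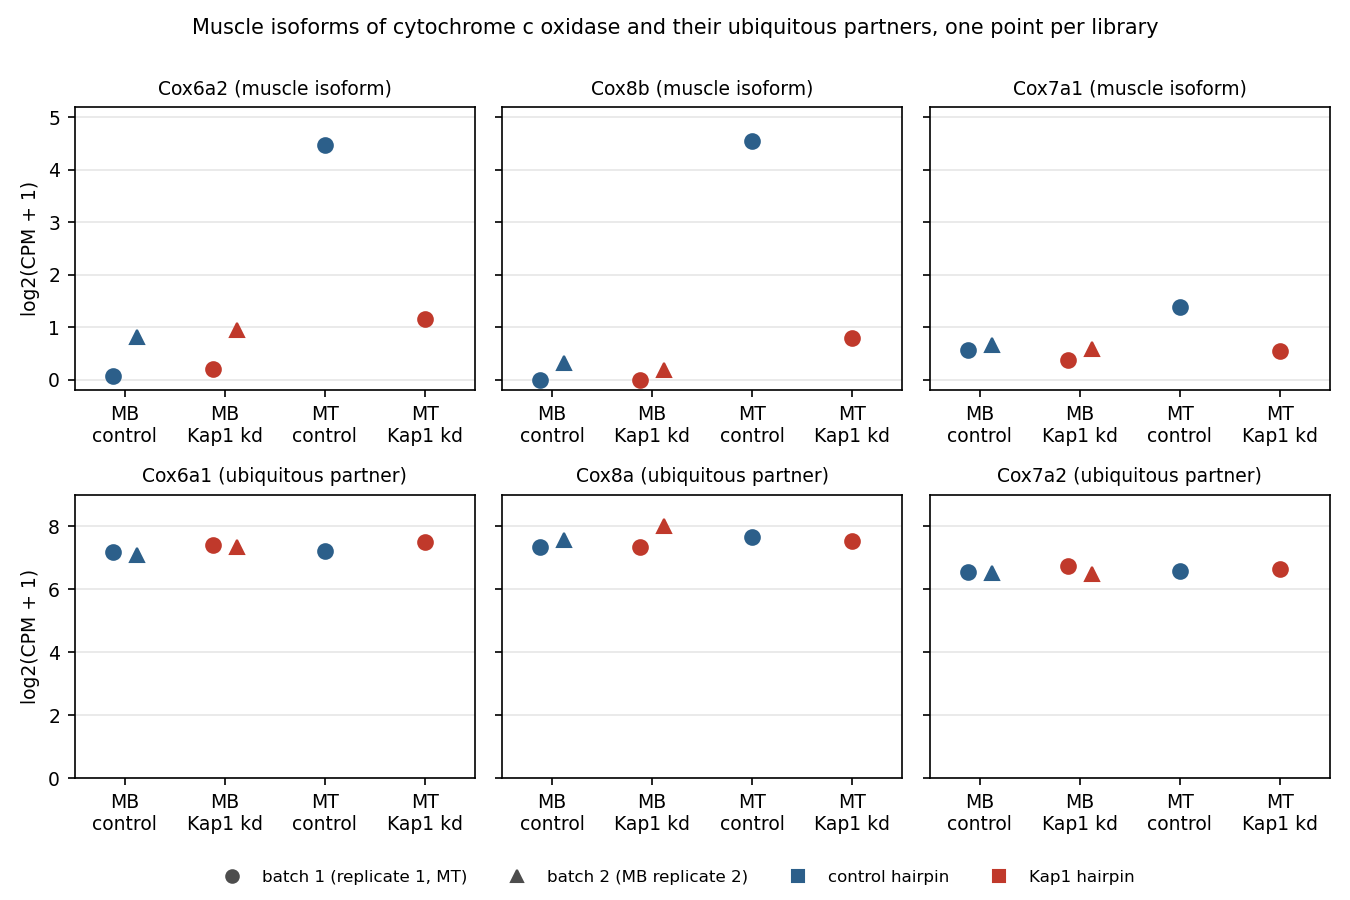
Level of each muscle isoform of cytochrome c oxidase (top row) and of its ubiquitous partner (bottom row) in the 6 libraries, as log2(CPM + 1) on the vertical axis, by group on the horizontal axis, 1 point per library. MT control stands above all other libraries for Cox6a2 (21.4 CPM), Cox8b (22.6 CPM) and Cox7a1 (1.63 CPM). The partners are high in every library, and MT control is not the highest for any of them. Cox8a ranges from 160 to 257 CPM.

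The ubiquitous partners were high in every library. Cox6a1 was at 143 and 134 CPM in MB control, 167 and 161 CPM in MB knockdown, 149 CPM in MT control and 179 CPM in MT knockdown. Cox7a2 was at 87.6 to 106 CPM in all 6 libraries, and Cox8a was at 159.6 and 188 CPM in MB control, 162 and 257 CPM in MB knockdown, 200.04 CPM in MT control and 183 CPM in MT knockdown. Even in MT control the muscle isoform was the smaller share of each pair. Per kilobase it made up 12.9% of the Cox6a2 and Cox6a1 pair, 16.3% of the Cox8b and Cox8a pair and 2.93% of the Cox7a1 and Cox7a2 pair, and at most 1.14% of any pair in the other 5 libraries. As shares of counts, which need no length, the MT control values were 12.6% (exact 95% interval 11.9% to 13.3%), 10.2% (9.6% to 10.7%) and 1.68% (1.34% to 2.09%), and in MT knockdown 0.687% (0.502% to 0.918%), 0.406% (0.268% to 0.59%) and 0.471% (0.275% to 0.754%). Where Cox8b had 0 counts, its share of the pair could have been up to 0.0448% in MB control and 0.0398% in MB knockdown.

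**Figure D2:**
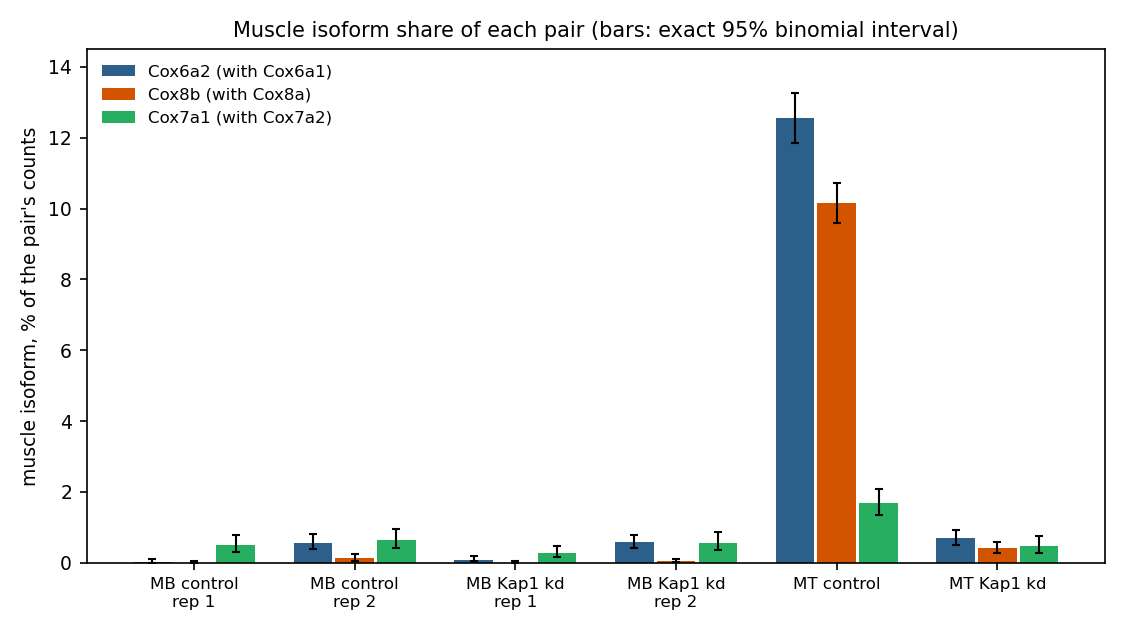
Share of each isoform pair's counts that came from the muscle isoform, in percent, as 1 bar per isoform in each of the 6 libraries, where whiskers are exact 95% binomial intervals for counting error. The share is 12.6% for Cox6a2, 10.2% for Cox8b and 1.68% for Cox7a1 in MT control and below 1% in every other library.

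Markers of differentiated muscle moved with these isoforms. The 7 markers (Myog, Ckm, Acta1, Tnni2, Tnnt3, Myh3 and Mymk) summed to 11.2 and 121 CPM in MB control, 11.8 and 71.2 CPM in MB knockdown, 6583 CPM in MT control and 114 CPM in MT knockdown, and none was at 0 in any library. They stood higher in replicate 2 than in replicate 1 of both MB groups, as Cox6a2 and Cox8b did. Their part in the isoform differences was not tested. In bulk RNA, fewer differentiated cells and less RNA of a gene per cell cannot be told apart. The fat markers, which matter because Cox7a1 and Cox8b are also high in brown fat, summed to 3.67 to 29.4 CPM, were lower in MT than in MB replicate 1, and had Ucp1 and Adipoq at 0 in all 6 libraries. The 4 heart markers summed to 44.1 CPM in MT control against 1.81 to 5.93 CPM elsewhere. Nearly all of that was Myh6, a cardiac myosin heavy chain, at 41.4 CPM in MT control and at most 0.824 CPM in the other libraries, so it moved with Cox6a2 and Cox8b, while Nppa was at no more than 0.0828 CPM. The part of Myh6-expressing cells was not tested. Cox6a2 overlaps Itgad, an integrin gene on the opposite strand, and the sources used here do not give the counting strand. Itgad had 20 counts in MT control against 1065 for Cox6a2, and at most 2 in any other library.

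Tests were run over all 16472 genes that passed the filter, with log2 differences scaled by TMM. The main edgeR quasi-likelihood fit, with 1 mean per group, called 0 members and 0 of all genes in every comparison at an adjusted p of 0.05 (Benjamini-Hochberg). Its members with an unadjusted p under 0.05 were 0 of 74 for knockdown in MB (all genes: 2.76%), 2 for knockdown in MT (8.4%), 9 for differentiation in control cells (25.3%), 2 for differentiation in knockdown cells (15.2%) and 1 for the interaction (5.01%), the difference between the knockdown effects in MT and in MB. In every comparison the members' share was below that of all genes. DESeq2 without a batch term called Cox6a2 and Ndufv3 for differentiation in control cells and Ndufaf4 in knockdown cells. A second edgeR fit, with a term for the batch taken from the file-name mark, gave the calls below. The batch term is a replicate block over the MB pairs, and this fit leaves 1 residual degree of freedom among the libraries, so its calls rest on a small basis, and in the MT groups, with 1 library each, the lone libraries are assumed to vary as the MB libraries do.

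Both MT libraries are in batch 1, so in the differentiation comparisons the batch term sets MB replicate 2 to the level of replicate 1. Differentiation in control cells changed 18 of the 74 members in the fit with the batch term. Of these, 13 rose (17.6% of members, 22.3% of all genes) and 5 fell (6.76%, against 22.6% of all genes). Few changes were large: 4 of 74 members (5.41%) differed at least 2-fold, against 26.9% of all genes. The members' median log2 difference was 0.10 and that of all genes -0.01. By complex, 8 complex I genes rose and 1 fell, 0 assembly factors rose and 3 fell, 0 complex II genes changed, 1 complex III gene rose, and in complex IV 4 rose and 1 fell.

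In complex I, Ndufv3 (ENSMUSG00000024038), an accessory subunit of the NADH-oxidising module, had the largest rise. It was at 27.4 and 39.9 CPM in MB control, 35.4 and 44.6 CPM in MB knockdown, 82 CPM in MT control and 62.3 CPM in MT knockdown. Both MT libraries were above all 4 MB libraries. The log2 difference was 1.55 in control cells (SE 0.127, adjusted p = 7.36e-06, edgeR with the batch term) and 0.79 in knockdown cells (SE 0.127, adjusted p = 0.00131), and within control cells it was 1.60 against MB replicate 1 and 1.04 against replicate 2.

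Other complex I genes that rose in control cells were the accessory subunits Ndufb2 (0.57), Ndufa13 (0.52), Ndufa6 (0.45), Ndufa3 (0.45) and Ndufa7 (0.37) and the core subunit Ndufs3 (0.40). Ndufb8, an accessory subunit of the membrane arm, fell (-0.36). Against MB control replicate 1 and replicate 2 taken singly, Ndufa6 differed by 0.53 and 0.17 and Ndufb8 by -0.35 and -0.19. Ndufa3 differed more against replicate 2 (0.51 and 0.82). Some members named here and below share exon positions with another gene in the GENCODE M21 annotation, on the same or the opposite strand. They are Ndufs1, Ndufs3, Ndufa3, Ndufa13, Ndufb2, Ndufb6, Ndufb8, Ndufa4l2, Cox4i1 and Cox5a, and so do Ndufa2 and Ndufb9 above. The counts of all these genes are uncertain where reads were not assigned by strand.

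The assembly factors that changed in control cells all fell. Ndufaf4, which works together with Ndufaf3, was at 36.5 and 33.2 CPM in MB control, 31.2 and 31.7 CPM in MB knockdown, 23.3 CPM in MT control and 18.9 CPM in MT knockdown. Both MT libraries were below all MB libraries, MT knockdown lowest. The log2 difference was -0.58 in control cells (SE 0.135, adjusted p = 0.00554, edgeR with the batch term) and -0.85 in knockdown cells (SE 0.139, adjusted p = 0.00141).

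Ndufaf2, a factor of late complex I assembly, was at 22 and 17.2 CPM in MB control, 23.7 and 17.7 CPM in MB knockdown, 13.6 CPM in MT control and 17.9 CPM in MT knockdown. By CPM, only MT control was below all MB libraries, while MT knockdown lay inside the range of MB knockdown. On the TMM scale of the log2 differences, MT knockdown was below both MB knockdown libraries. The log2 difference was -0.69 in control cells (SE 0.154, adjusted p = 0.00478, edgeR with the batch term) and -0.47 in knockdown cells (SE 0.153, adjusted p = 0.0378), the latter -0.48 against MB replicate 1 and -0.10 against replicate 2. Ndufaf6 was at 8.11 to 9.56 CPM in MB and at 5.92 and 6.43 CPM in MT, with log2 differences of -0.61 in control cells (adjusted p = 0.0373, edgeR with the batch term) and -0.61 in knockdown cells (adjusted p = 0.0496). Ndufaf3 and, without passing the test, Ndufaf1 went the other way. Ndufaf1 was at 13.9 to 18.2 CPM in MB and at 21.2 and 21.1 CPM in MT. Ndufaf3 was at 1.71 to 2.63 CPM in MB, 2.89 CPM in MT control and 3.89 CPM in MT knockdown, with a rise of 1.10 in knockdown cells (SE 0.298, adjusted p = 0.0182, edgeR with the batch term) and a log2 difference of 0.61 in control cells that did not pass (adjusted p = 0.122). Ndufaf2 and Ndufaf3 also share exon positions with an opposite-strand gene.

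Complex II, succinate dehydrogenase, had 0 of 4 genes called in either state of the hairpin. Sdha, the flavoprotein subunit, was at 291 and 337 CPM in MB control, 298 and 346 CPM in MB knockdown, 281 CPM in MT control and 269 CPM in MT knockdown. Both MT values were below all MB values for Sdha, and likewise for Sdhb, the iron-sulfur subunit (102 to 127 CPM in MB, 81.2 and 90.2 CPM in MT). Sdhd was at 118 to 139 CPM in MB and at 116 and 101 CPM in MT. Sdhc, the other membrane anchor, was at 94.8 to 109 CPM in MB and at 114 and 109 CPM in MT. None of these differences passed, and the complex II median was -0.12 in control cells and -0.25 in knockdown cells.

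In complex III, Uqcr11, a small accessory subunit, rose in control cells. It was at 70.3 and 74.6 CPM in MB control, 77.6 and 80.9 CPM in MB knockdown, 97.8 CPM in MT control and 70.6 CPM in MT knockdown. By CPM, MT control was the highest library and MT knockdown lay at the lower end of the MB range. On the TMM scale MT knockdown was below both MB knockdown libraries (log2 differences -0.21 and -0.31). The log2 difference was 0.50 in control cells (SE 0.12, adjusted p = 0.00706, edgeR with the batch term). In knockdown cells the complex III gene that passed was Uqcrc1, a core protein, at 162 and 173 CPM in MB knockdown and 129 CPM in MT knockdown, which fell by 0.44 on the log2 scale (SE 0.129, adjusted p = 0.0243). MT control was at 139 CPM for it, also below all MB libraries, without passing the test there.

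In complex IV the rises in control cells were those of the muscle isoforms and of Cox8a. For Cox6a2 the log2 difference was 8.0 (SE 0.393, adjusted p = 1.91e-07, edgeR with the batch term), but it leans on MB control replicate 1. Without the batch term it was 4.81 when that replicate was left out and 8.76 when replicate 2 was left out. Cox7a1 rose by 1.90 (SE 0.422, adjusted p = 0.00455). Cox8b passed as well (adjusted p = 6.6e-07, edgeR with the batch term), with a fitted value that depends on the prior count because of its 0 counts, so the ratios above stand for it. Cox8a rose by 0.46 (adjusted p = 0.0425) with the batch term, while against single MB libraries its difference was 0.35 for replicate 1 and 0.09 for replicate 2. Cox5a, a subunit that carries no metal centre, was at 47 and 64.8 CPM in MB control, 46 and 55.5 CPM in MB knockdown, 36.3 CPM in MT control and 42.8 CPM in MT knockdown. MT control was lowest and the log2 difference was -0.39 (adjusted p = 0.0311, edgeR with the batch term).

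Differentiation in knockdown cells changed 14 of the 74 members with the batch term. Of these, 8 rose (10.8% of members, 16.6% of all genes) and 6 fell (8.11%, against 16.5%), and the members' median log2 difference was -0.05, that of all genes 0.02. Among the complex IV genes, Cox8b (adjusted p = 0.000409) and Cox6a2 (log2 difference 3.29, SE 0.482, adjusted p = 0.000762, edgeR with the batch term) rose, and Cox7a1 did not pass. The Cox6a2 value leans on MB knockdown replicate 1. Without the batch term it was 0.29 when that replicate was left out and 2.95 when replicate 2 was left out. Cox7a2l, an assembly factor of respiratory supercomplexes that is named after a complex IV subunit, was at 113 and 130 CPM in MB control, 135 and 139 CPM in MB knockdown, 138 CPM in MT control and 200.2 CPM in MT knockdown. MT knockdown was the highest library, with a log2 difference of 0.53 against MB knockdown (SE 0.124, adjusted p = 0.00867, edgeR with the batch term). Besides Ndufv3, the accessory complex I subunits Ndufa3 (0.47) and Ndufa6 (0.44) rose, and Ndufs7, a core subunit (-0.42), and Ndufb6, an accessory one (-0.40), fell. Scaled to total counts alone instead of TMM, 8 members rose and 1 fell here, in place of 8 and 6.

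**Figure D3:**
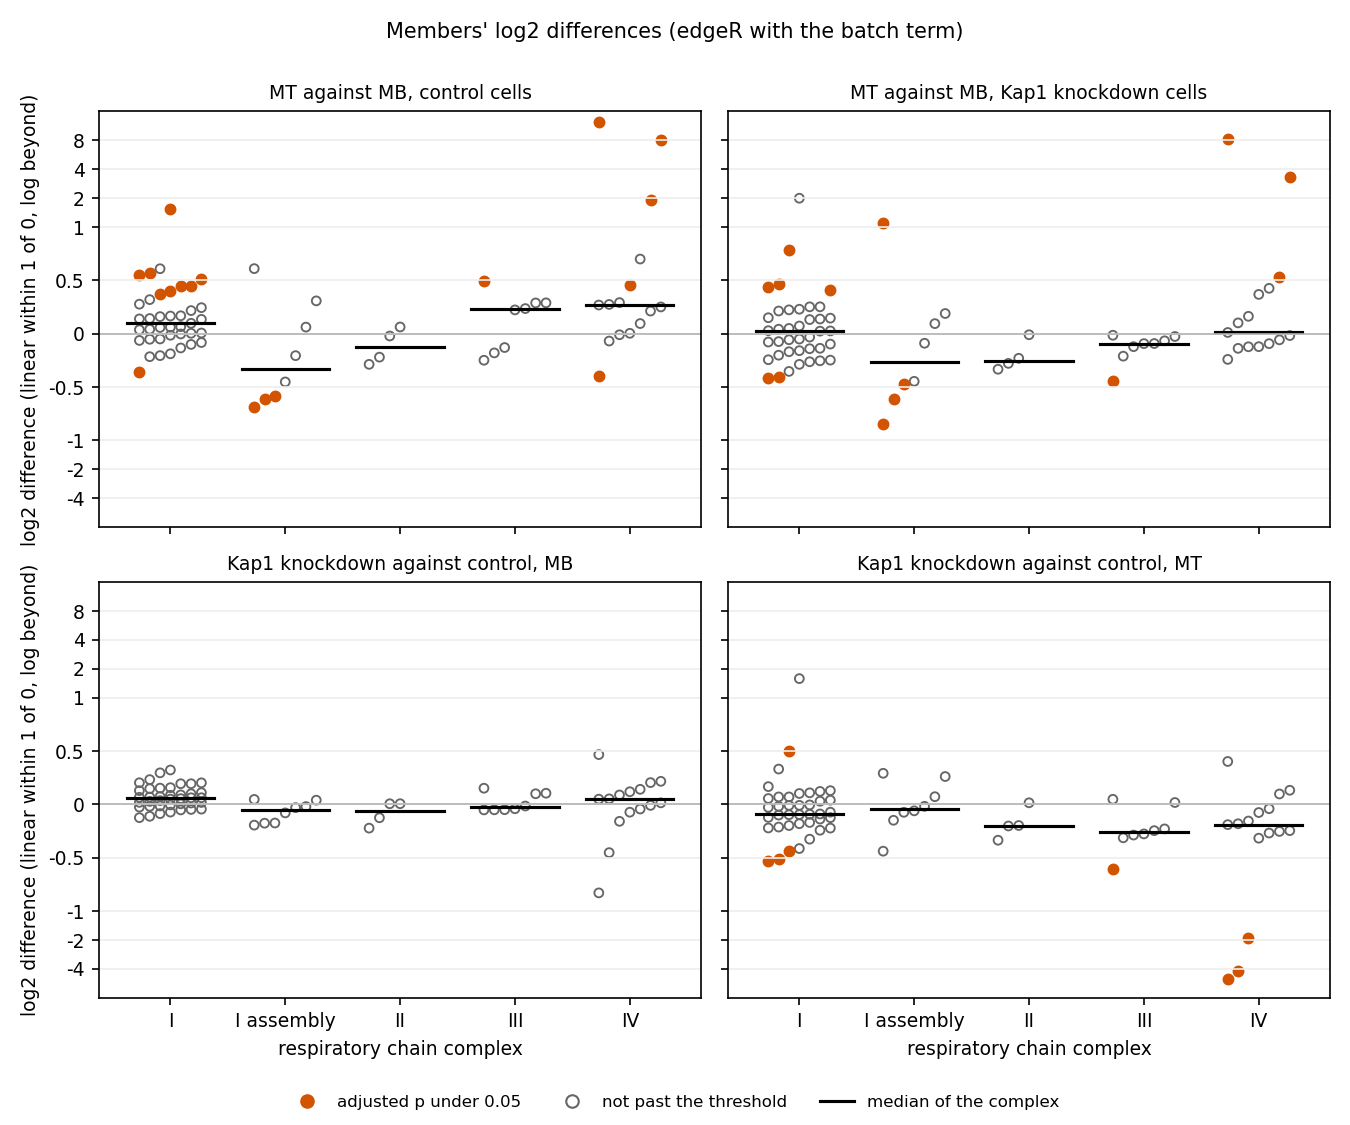
Log2 differences of the 74 tested members by complex in 4 comparisons (edgeR with the batch term), with the vertical axis linear within 1 of 0 and logarithmic beyond. Filled points passed an adjusted p of 0.05, bars are medians, and the fitted values of Cox8b (the top points in the upper panels) depend on the prior count. Filled points lie on both sides of 0 in the 2 differentiation panels, there are 0 in MB knockdown, and 7 of the 8 in MT knockdown are below 0.

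Set side by side within batch 1, where the control and knockdown comparisons share no library, 71 members could be compared. Of these, 26 were higher in MT than in MB replicate 1 with both hairpins, 20 were lower with both and 25 went opposite ways. The difference was lower in knockdown than in control cells for 55 members and higher for 16. These counts move with the scaling of the MT libraries, which is given below, and they are a description with no test. The same counts were not made over all genes. The median interaction with the batch term was -0.12 for members and 0.02 for all genes.

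**Figure D4:**
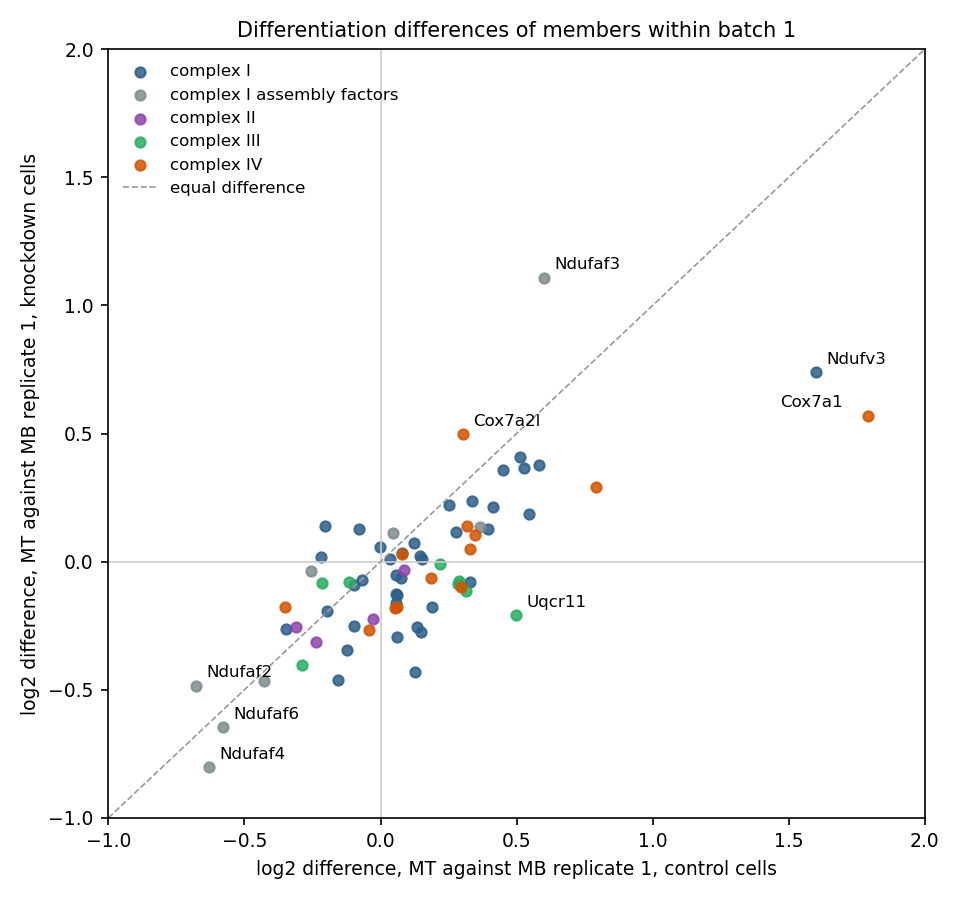
Log2 difference of MT against MB replicate 1 in control cells (horizontal) and in knockdown cells (vertical) for 71 members, coloured by complex, with a dashed line where both are equal. Cox6a2, Cox8b and Ndufa4l2 are not drawn because of their low counts in MB replicate 1. Ndufv3 and Cox7a1 lie furthest right and below the line, Ndufaf2, Ndufaf4 and Ndufaf6 lie at the lower left, and Ndufaf3 lies highest.

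**Figure D5:**
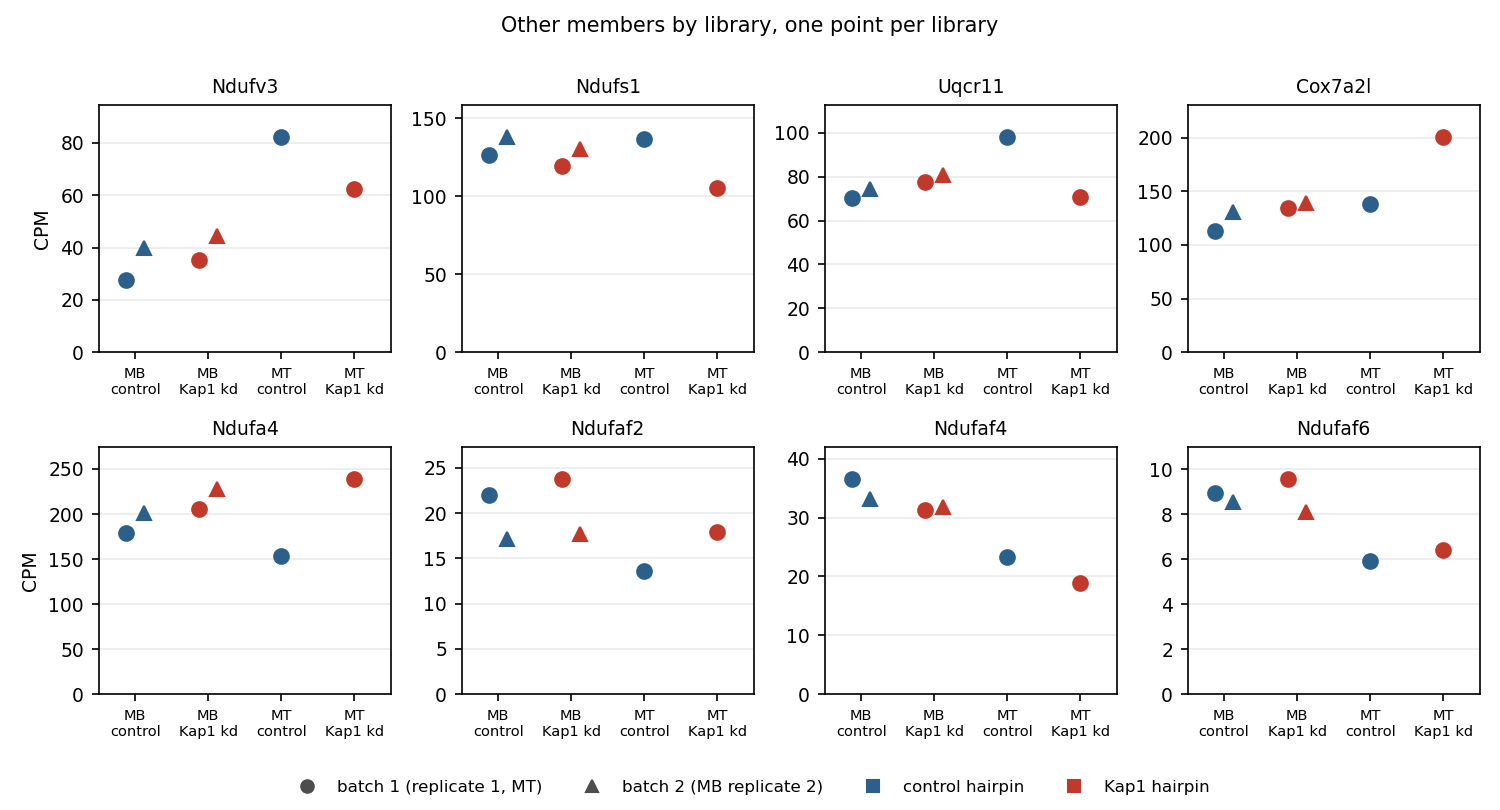
CPM of 8 members in the 6 libraries (vertical axes start at 0, 1 point per library, groups on the horizontal axis). Ndufv3 is higher in both MT libraries than in all MB libraries, Ndufs1 is lowest in MT knockdown, Ndufaf4 and Ndufaf6 are lower in both, Uqcr11 is highest in MT control at 97.8 CPM, Cox7a2l is highest in MT knockdown, and Ndufa4 is lowest in MT control.

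Knockdown in proliferating cells moved the members little. In the fit with the batch term 0 of 74 members rose (2.51% of all genes) and 0 fell (1.34% of all genes). At an unadjusted p under 0.05 there were 4 members (5.41%, against 17.0% of all genes), and the smallest adjusted p was 0.164 (edgeR). DESeq2 called 0 members as well, with or without the batch term. The median log2 difference was 0.02 and that of all genes -0.01, and 0 members differed at least 2-fold, against 7.21% of all genes. Ndufa1, a small membrane-arm subunit, had the smallest p. Its control libraries stood at 21.7 and 23.4 CPM and its knockdown libraries at 28.8 and 27.7 CPM, without overlap, and its log2 difference was 0.30 (SE 0.102, adjusted p = 0.164, edgeR with the batch term). Sdhd, with 139 and 133 CPM in the control libraries against 119.7 and 118 CPM with knockdown, had a log2 difference of -0.22 (SE 0.0925, adjusted p = 0.254). Both libraries of knockdown lay above both of control for 10 of 74 members (13.5% of members and 13.5% of all genes), among them Cox4i1 and Cox6b1, and below for 5 (6.76%, against 13.1%), among them Sdhc and Ndufaf4. Of 71 members with counts enough in all 4 MB libraries, 26 were higher with knockdown in both replicate pairs, 15 were lower in both and 30 went opposite ways. For the muscle isoforms, the ratio of knockdown to control in summed counts was 1.33 for Cox6a2 (0.836 to 2.14), 0.748 for Cox7a1 (0.468 to 1.19) and 0.549 for Cox8b (0.164 to 1.67), all intervals that hold 1. Smooth muscle markers moved with the knockdown. Their sum was 3274 CPM in control and 6326 CPM in knockdown replicate 1, and 1387 and 2081 CPM in replicate 2. Of 6 tested, 5 rose with knockdown in MB (83.3%, edgeR with the batch term), Lmod1 most (log2 difference 2.17), and 4 in MT (66.7%), Cnn1 most (3.34), where the sums were 5587 CPM in control and 5914 CPM in knockdown. Acta2, the largest part of these sums, was at 5116 CPM in MT control and 4685 CPM in MT knockdown. Myh11, the smooth muscle myosin on the list, was at 0.0246 to 0.276 CPM in the 6 libraries. The part of cells with these markers in the members' values was not tested.

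In differentiated cells 8 members differed between knockdown and control with the batch term. Ndufa4 rose (1.35% of members, 9.09% of all genes) and 7 fell (9.46%, against 11.2%), and the members' median log2 difference was -0.10, that of all genes 0.02. The members that fell were Cox8b (log2 difference -5.05, SE 0.348, adjusted p = 1.54e-05, edgeR with the batch term), Cox6a2 (-4.24), Cox7a1 (-1.92), Uqcr11, Ndufv3, Ndufs1 and Ndufb10. Scaling moves these figures. With total counts alone the median of all genes shifted by 0.14, from 0.02 to 0.15 (and by 0.11 in the interaction), the members' median moved with it from -0.10 to 0.04, and the gap between the medians was -0.12 either way. Under that scaling with the batch term 3 members rose and 4 fell, and no member called here changed sign. Each value in this comparison rests on 1 library per hairpin.

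Uqcr11 was at 97.8 CPM in MT control and 70.6 CPM in MT knockdown, a log2 difference of -0.61 (SE 0.13, adjusted p = 0.00923, edgeR with the batch term), and Ndufv3, at 82 and 62.3 CPM, had -0.53 (SE 0.137, adjusted p = 0.0213). Ndufs1, the largest core subunit of complex I, was at 136 CPM in MT control and 105 CPM in MT knockdown, below its MB values of 119 to 138 CPM (log2 difference -0.51, adjusted p = 0.0209). Ndufb10, an accessory subunit of the membrane arm, was at 70.9 and 57.7 CPM (log2 difference -0.43, adjusted p = 0.0421). With total counts and the batch term, edgeR no longer called Ndufv3 (adjusted p = 0.0648), Ndufs1 (0.0588) or Ndufb10 (0.118). With DESeq2 and the batch term, Cox7a1 (adjusted p = 0.523), Ndufv3 (0.107), Ndufb10 (0.168) and Ndufa4 (0.0895) did not pass. Ndufa4, named as a complex I gene and now counted with complex IV, was at 179 and 202 CPM in MB control, 206 and 228 CPM in MB knockdown, 153 CPM in MT control and 239 CPM in MT knockdown. By CPM, MT control was the lowest library and MT knockdown the highest, while on the TMM scale MT knockdown was level with MB knockdown replicate 2 (log2 difference -0.05). Between the MT libraries the log2 difference was 0.50 (SE 0.133, adjusted p = 0.0249, edgeR with the batch term). Ndufa4l2, a relative of Ndufa4, passed the filter through MT knockdown alone, with 17 counts there against 7 in MT control, and did not pass the test (adjusted p = 0.156).

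The knockdown effect itself differed between MT and MB for 4 members with the batch term, all lower in MT: 0 were higher (all genes: 3.82%) and 4 (5.41%) were lower (all genes: 6.63%). They were Cox6a2 (interaction -4.71, SE 0.493, adjusted p = 0.000257, edgeR), Ndufv3 (-0.77, SE 0.168, adjusted p = 0.0168), Cox8b (-4.23, SE 0.893, adjusted p = 0.0169) and Uqcr11 (-0.71, SE 0.159, adjusted p = 0.0188). The Cox8b value rests on 6 counts in MB knockdown replicate 2 and turned to 0.40 without that library and without the batch term. Without the batch term the Cox6a2 value ran from -7.67 without MB control replicate 2 to -2.77 without MB knockdown replicate 2. With DESeq2 and the batch term Ndufv3 (adjusted p = 0.0714) and Uqcr11 (adjusted p = 0.0509) did not pass. For Uqcr11 the knockdown difference was 0.10 in both MB replicate pairs and -0.61 in MT, and for Ndufv3 0.33 and 0.14 in the MB pairs and -0.53 in MT. The same 4 values are the differences between the differentiation effects of knockdown and control cells.

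Other genes of mitochondrial respiration were examined by lists, with the batch term. Over all genes, 22.3% rose and 22.6% fell in control differentiation, 16.6% and 16.5% in knockdown differentiation, and 9.09% and 11.2% with knockdown in MT. Of 13 mitochondrially encoded subunits, 3 (23.1%) rose on differentiation in control cells (mt-Nd4, mt-Nd5 and mt-Nd6, all complex I), 1 (7.69%) rose in knockdown cells (mt-Nd6), and 2 (15.4%) fell with knockdown in MT (mt-Nd4l and mt-Nd5). Their sum was 24196 and 36689 CPM in MB control, 24568 and 33443 CPM in MB knockdown, 25308 CPM in MT control and 27651 CPM in MT knockdown, so replicate 2 was the higher one in both MB groups. Of 18 ATP synthase genes, 2 (11.1%) rose and 1 (5.56%) fell in control differentiation, shares below those of all genes, and 1 (5.56%) rose and 3 (16.7%) fell with knockdown in MT. The one that rose was Atpif1, an inhibitor of ATP synthase, at 28.1 CPM in MT control and 56 CPM in MT knockdown.

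Of 30 tested assembly factors of complexes II to IV, 7 (23.3%) rose and 3 (10.0%) fell in control differentiation, 2 (6.67%) rose and 3 (10.0%) fell in knockdown differentiation, and 0 rose and 5 (16.7%) fell with knockdown in MT. Higd1a, a hypoxia-induced partner of cytochrome c oxidase, was at 31.5 and 35.4 CPM in MB control, 31.7 and 35.4 CPM in MB knockdown, 82.3 CPM in MT control and 37.9 CPM in MT knockdown. Only MT control was high, and the interaction was -1.23 (SE 0.162, adjusted p = 0.00106, edgeR with the batch term). Of 5 tested genes on a list of electron carriers (Cycs, Cyc1, Etfa, Etfb and Etfdh), 0 rose and 1 (20%) fell in control differentiation. In knockdown differentiation, and likewise with knockdown in MT, 0 rose and 2 (40%) fell. Cycs, cytochrome c, the carrier between complexes III and IV, was at 247 and 217 CPM in MB control, 217 and 201 CPM in MB knockdown, 161 CPM in MT control and 117 CPM in MT knockdown. Both MT libraries were below all MB libraries, and the log2 difference was -0.57 in control and -0.99 in knockdown differentiation (adjusted p = 0.00437 and 0.0004, edgeR with the batch term). Cyc1, the cytochrome c1 subunit of complex III that the symbol rule does not catch, was at 267 CPM in MT control and 185 CPM in MT knockdown, and fell with knockdown in MT (-0.67, adjusted p = 0.00994).

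Of 16 genes of the citric acid cycle and pyruvate dehydrogenase, which supply the chain with NADH and succinate, 2 (12.5%) rose and 5 (31.2%) fell in control differentiation, 0 rose and 5 (31.2%) fell in knockdown differentiation, and 0 rose and 3 (18.8%) fell with knockdown in MT. Cs, citrate synthase, was at 515 and 547 CPM in MB control, 471 and 583 CPM in MB knockdown, 330 CPM in MT control and 323 CPM in MT knockdown, lower in both MT libraries than in all MB ones. Of 18 tested regulators of mitochondrial biogenesis, 2 (11.1%) rose and 5 (27.8%) fell in control differentiation and 1 (5.56%) rose and 4 (22.2%) fell in knockdown differentiation. With knockdown in MT 0 rose and 1, Ppargc1a, fell (5.56%, against 11.2% of all genes). Ppargc1a, the coactivator PGC-1alpha, was at 0.31 and 0.246 CPM in MB control, 0.214 and 0.206 CPM in MB knockdown, 2.03 CPM in MT control and 0.772 CPM in MT knockdown. MT control was highest and MT knockdown next, and the log2 difference between them was -1.52 (SE 0.427, adjusted p = 0.031, edgeR with the batch term). Myoblast markers summed to 434 to 1143 CPM in MB, 2445 CPM in MT control and 991 CPM in MT knockdown. Des (1209 CPM) and Chrna1 (705 CPM) made up most of the MT control sum. Myf5 alone was lowest in MT control, at 34.8 CPM. It was at 82.3 and 68.6 CPM in MB control, 49.6 and 91.6 CPM in MB knockdown and 82.4 CPM in MT knockdown. Testis markers summed to at most 0.1 CPM. The part of these markers in the members' differences was not tested.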

How the data were processed

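The authors deposited whole-number read counts per Ensembl gene, 1 table a library. TopHat2 2.0.11, HTSeq and mm9 are the aligner, counter and build named per the submitters' processing notes. The sources used here give no annotation release, counting mode or strand setting. Symbols matched 32919 of 37991 identifiers (99.04% of counts). Lines naming no gene were left out. Reads outside genes were 5.18% to 8.07% and ambiguous reads 2.81% to 2.93%. Exon lengths came from GENCODE M21, and 25 members overlap another gene's exons there.

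The tests used edgeR 4.0.16 (R 4.3.3) with its robust quasi-likelihood fit (TMM, filterByExpr by group, all 6 libraries in 1 fit with a mean per group, Benjamini-Hochberg over 16472 genes, threshold 0.05), without and with a batch term from a mark in the deposited file names, whose meaning is not given. DESeq2 1.42.0 was an alternative. On simulated data, fits with the batch term recovered 100% of 200 genes changed by 2 on the log2 scale. False calls made up 23.7% of the calls for knockdown in MB and 17.4% in MT, more than the threshold of 0.05 allows. Smaller changes and a batch difference were not simulated. Named genes were the isoform pairs and other tissue isoforms, in each complex and comparison the 2 members with the smallest p and those with the largest difference each way (mean of at least 1 CPM), all called members where a comparison had 8 or fewer, and the most abundant members. Other called members, overlap examples and genes of the other lists were named after their values were seen. Some members' own results are not reported here, while counts and medians include all members. Members, lists and rules were chosen with earlier results of these data known. Intervals are at the 95% level, exact, and cover counting error only, as does the floor of 3 counts.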

Additional observations from a re-analysis of the deposited data

Results flagged for a closer look

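The knockdown effect differed between differentiated and proliferating cells for 4 members by a test of the difference itself (edgeR interaction with the batch term). For Cox6a2, a muscle isoform of cytochrome c oxidase, the difference was -4.71 on the log2 scale (adjusted p = 0.000257), and -7.67 to -2.77 without the batch term when single MB libraries were left out. For Ndufv3, an accessory subunit of complex I, it was -0.77 (adjusted p = 0.0168). For Cox8b, the other strongly changing muscle isoform, it was -4.23 (adjusted p = 0.0169), and it turned to 0.40 without MB knockdown replicate 2 and without the batch term. For Uqcr11, a small subunit of complex III, it was -0.71 (adjusted p = 0.0188). Without the batch term none of the 4 passed (edgeR, 0 members called for the interaction, 1 at an unadjusted p under 0.05), and DESeq2 with the batch term called Cox6a2 and Cox8b. Each effect in MT rests on 1 library per hairpin, and the differentiated muscle markers summed to 6583 CPM in MT control and 114 CPM in MT knockdown. Their part in these values was not tested.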

How the results depend on the processing

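Without a batch term edgeR called 0 members in all 5 comparisons under each scaling, without a filter and with any MB library left out. The batch term, a replicate block taken from the file names over 2 MB pairs, gave 8 calls for knockdown in MT, 18 for differentiation in control, 14 in knockdown and 4 for the interaction, and 0 for knockdown in MB. DESeq2 without the term called 2 and 1 for differentiation in control and knockdown, and with it 4, 7, 5 and 2 in the order above. Alternatives that combine the term with another scaling or with no filter were added after seeing the data. With total counts and the term, 9 members were called for differentiation in knockdown. In these 3 and in DESeq2 with the term, 3 calls remained for knockdown in MT (Cox8b, Cox6a2, Uqcr11), 6 for differentiation in control (among them these 3, Ndufv3 and Ndufa13), 5 in knockdown (Cox8b, Cox6a2, Ndufv3, Ndufaf4, Cox7a2l) and 2 for the interaction (Cox6a2, Cox8b). The members' median moved to 0.0387 for knockdown in MT, -0.0281 for differentiation in knockdown and -0.0223 for the interaction with total counts, and to 0.13 for differentiation in control with DESeq2 and the term. Leaving out single MB libraries reversed values of 2 low-count isoforms, of Cox7a1 and of the well-counted Ndufv3. For knockdown in MB, Cox6a2 ranged from -1.46 to 3.42, Cox8b from -5.46 to 4.62 and Ndufv3 from -0.03 to 0.52. Cox7a1 in differentiation in knockdown ranged from -0.22 to 0.57 and the Cox8b interaction from -9.68 to 0.40. The causes were not tested. The block rests on file names: replicate 2 minus replicate 1 correlated between the 2 hairpins at r = 0.825 over 16472 genes and 0.81 over 74 members, which share depth and are not independent. With 1 MT library per hairpin there is no replicate check in MT.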
